A study of Mus musculus with 6 samples.

Results

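The 32 genes described here encode the sugar and lactate carriers, the enzymes of glycolysis with their lactate and pyruvate branches, and enzymes of the polyol and pentose phosphate pathways. They were chosen by name, with earlier results of these data known, so the shares of all genes given beside their counts are no independent test. A probe set is a short group of oligonucleotides against the same transcript. A gene was measured where the array's annotation gives at least 1 probe set to that gene alone. By this rule 26 of the 32 genes were tested, among 12393 genes tested in all. The brightest probe set over the 6 arrays stood for its gene, and the gene's other probe sets served as a check. The 6 members not tested were Gpi1, Eno1, Akr1b3, Sord and G6pdx, for which no probe set of the table used here carries the gene as its only symbol, and Gapdh, whose remaining probe sets are array controls. Glucose-6-phosphate dehydrogenase, the entry enzyme of the pentose phosphate pathway, aldose reductase and sorbitol dehydrogenase, the enzymes of the polyol pathway proper, were therefore not analysed here.

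Hsf4 encodes a heat shock transcription factor of the lens whose loss causes cataract in mice. Lenses were taken from newborn mice of the ICR strain, 3 Hsf4-null and 3 wild-type, and RNA of each sample was hybridized to its own Affymetrix mouse array after amplification of 50 ng of total RNA. No other allele, drug or age is given for either group. The null allele is not restricted to the lens, the methods call the arrays biological triplicates, and whether lenses were pooled or came from littermates is not stated, so the p-values measure the spread between these samples.

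The lens has no blood vessels and lives at low oxygen, and most of its cells, the fibers, lose their mitochondria as they mature. Glycolysis is therefore its main source of ATP, and the lactate that results leaves through monocarboxylate carriers. The pentose phosphate pathway supplies NADPH, which keeps glutathione reduced, and the polyol pathway turns glucose to sorbitol and on to fructose, a route known from cataract in animals with high blood sugar.

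The targeted gene followed the labels. Hsf4 had log2 intensities of 4.26, 4.09 and 3.78 in Hsf4-null lenses, against 9.09, 9.39 and 9.56 in wild-type lenses, a log2 fold change of -5.30 (SE 0.16, adjusted p = 9.54e-06, limma), although whether this probe set lies in the deleted part of the gene was not given. All 4 measured markers of lens fibers lay near the top of the scale in both groups, with a mean log2 of 13.76 to 13.90 in Hsf4-null and 13.84 to 13.89 in wild-type lenses. All 10 measured markers of skeletal muscle, a tissue rich in Aldoa and Eno3, lay below the median of all probe sets. Median log2 intensities of the arrays ran from 5.22 to 5.38, and the deposited values carry no detection calls, so a level near this median may be background. Sex-linked transcripts were uneven. Xist had log2 intensities of 9.51, 5.79 and 5.84 in Hsf4-null lenses and 10.50, 5.24 and 5.26 in wild-type lenses. Y-linked Eif2s3y had 4.35, 10.28 and 3.20 in Hsf4-null lenses and 3.40, 10.48 and 10.81 in wild-type lenses. Hsf4-null replicate 3 was thus low for both. Kdm5d had the same low and high arrays as Eif2s3y, and Uty was less clear. The part of sex in the results was not tested. In whole lenses, fewer cells of a type and less RNA per cell cannot be told apart.

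Most transcripts of these pathways did not pass the test in the absence of Hsf4. Aldoa, Eno2 and Pdk1 rose, 0 members fell, and the other 23 tested members did not pass an adjusted p of 0.05 (limma, Benjamini-Hochberg adjustment over 22626 probe sets). Over all tested genes 0.775% were called higher, 2.11% lower and 2.88% in either direction by the same rule, and 2.66% of all probe sets. The members were brighter than most genes, with 22 of the 26 above the median gene. No share over genes of like brightness was computed. All Hsf4-null values lay above all wild-type values for 7 members (Aldoa, Eno2, Pdk1, Pgk1, Slc2a3, Pfkl and Slc16a1), and the reverse held for 1 member, Hk2. Among all genes the groups were apart in 10.1% of cases upward and in 11.5% downward. The median log2 fold change was 0.07 over the 26 members and 0.01 over all genes, with 17 positive and 9 negative estimates. At an unadjusted p under 0.05, 7 members were higher and 1 was lower, against 7.34% and 8.38% of all genes, and the methods' t-test with Benjamini-Hochberg adjustment called 0 members, against 0.376% of all probe sets. Without Hsf4-null replicate 3 limma called 0 members and without wild-type replicate 2 it called 1, and a member that missed the threshold is not shown to be level, since standard errors ran from 0.09 to 0.44.

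**Figure D1:**
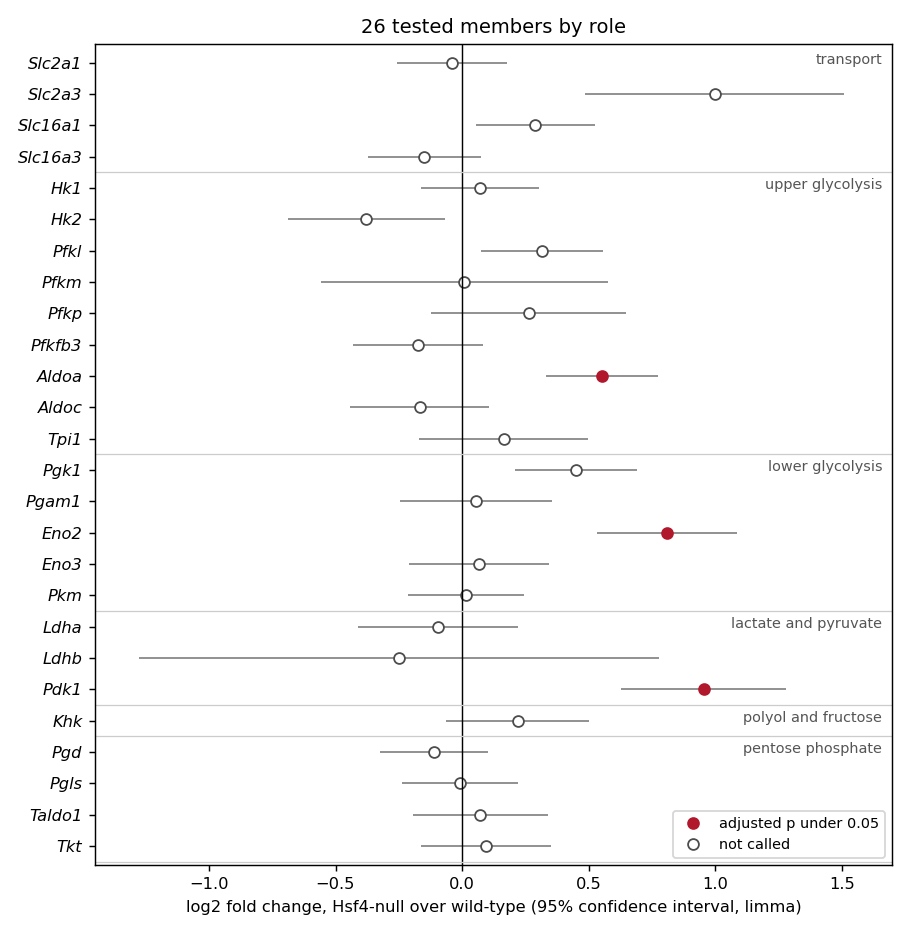
Log2 fold changes of the 26 tested members (horizontal axis, Hsf4-null over wild-type, with 95% confidence intervals from limma), grouped by role from the carriers at the top to the pentose phosphate pathway at the bottom. Filled red points mark Aldoa, Eno2 and Pdk1, the 3 members called; Ldhb has the widest interval, from -1.28 to 0.78.

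The promoters of the 3 genes that rose are shown because Hsf4 is a DNA-binding factor and because several members are textbook targets of the hypoxia-inducible factors. Among these targets are Pdk1 and Aldoa, and also Slc2a1, Ldha, Hk2 and Pgk1. The last 4 did not pass, at log2 fold changes of -0.04, -0.10, -0.38 and 0.45. The sequences are those of RefSeq on GRCm38.p6 and run from 250 bases before to 50 bases after the annotated transcription start. Capitals mark 2 kinds of match, searched on both strands: the core of the hypoxia response element (ACGTG or GCGTG) and an inverted pair of heat shock units (GAANNTTC or TTCNNGAA). Pdk1 lies on the plus strand at chr2:71872974-71873273, Aldoa on the minus strand at chr7:126799129-126799428 and Eno2 on the minus strand at chr6:124769624-124769923.
Pdk1: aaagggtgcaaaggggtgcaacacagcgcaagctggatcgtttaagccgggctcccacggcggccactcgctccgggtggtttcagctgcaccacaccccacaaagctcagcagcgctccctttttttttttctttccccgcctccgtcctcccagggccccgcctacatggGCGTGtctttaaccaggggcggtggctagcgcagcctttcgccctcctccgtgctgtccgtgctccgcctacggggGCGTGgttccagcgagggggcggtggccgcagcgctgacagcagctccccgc
Aldoa: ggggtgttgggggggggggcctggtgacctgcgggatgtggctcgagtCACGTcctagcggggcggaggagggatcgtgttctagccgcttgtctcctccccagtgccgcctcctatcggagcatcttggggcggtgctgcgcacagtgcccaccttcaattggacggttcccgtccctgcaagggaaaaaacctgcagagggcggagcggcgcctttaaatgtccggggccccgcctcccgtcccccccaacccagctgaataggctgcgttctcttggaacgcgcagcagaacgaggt
Eno2: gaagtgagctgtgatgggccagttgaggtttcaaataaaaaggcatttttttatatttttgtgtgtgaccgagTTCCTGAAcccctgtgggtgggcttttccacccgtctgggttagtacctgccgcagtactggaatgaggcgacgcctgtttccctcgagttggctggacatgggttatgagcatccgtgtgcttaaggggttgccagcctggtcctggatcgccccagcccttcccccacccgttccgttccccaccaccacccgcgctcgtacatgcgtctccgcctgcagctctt
The Pdk1 promoter holds the hypoxia core GCGTG at positions -78 and -2 from the start, and the Aldoa promoter holds it as CACGT, the reverse complement of ACGTG, at position -202. The Eno2 promoter holds no hypoxia core in this window and 1 heat shock pair, TTCCTGAA, at position -177. Aldoa has 3 annotated promoters, of which 2 overlap and hold the same core, Pdk1 has 2, of which 1 holds a core, and Eno2 has 1.

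These letters are common. RefSeq promoters were matched for 30 of the 32 members, all but Akr1b3 and Slc2a3, with 44 promoters in all. The hypoxia core stood in 34 of these 44, against 43.8% of all 32851 mouse promoters of the same length. Overlapping windows of 1 gene count separately here. By gene, 26 of the 30 members had a core in at least 1 promoter, against 46.7% of all 27025 genes. The median GC content was 61.0% in the member promoters and 52.7% in all promoters, a difference whose part in the counts was not tested. Of the 3 genes that rose, 2 had a core, and so had most members that did not pass, among them Slc2a1, Ldha, Pkm and Tkt. The heat shock pair stood in 5 of the 44 member promoters, 1 each of Pfkl, Pfkm, Eno2, Khk and Pgls, against 15.1% of all promoters. A match is a description of the letters and not a bound site.

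Pdk1 showed the largest change of the 3 genes. It encodes pyruvate dehydrogenase kinase 1, which phosphorylates and inhibits pyruvate dehydrogenase and so limits the entry of pyruvate into the mitochondrion. Pdk1 had log2 intensities of 10.33, 10.20 and 10.41 in Hsf4-null lenses, against 9.61, 9.12 and 9.35 in wild-type lenses. The lowest null array was 10.20 and the highest wild-type array 9.61, so the groups were well apart. The log2 fold change was 0.95 (SE 0.14, 95% confidence interval 0.63 to 1.28, adjusted p = 0.0128, limma), a 1.94-fold higher intensity. Its second, dimmer probe set had a log2 fold change of 0.70 with the groups apart but did not pass (adjusted p = 0.0886, limma). Without Hsf4-null replicate 3 the Pdk1 call was lost (adjusted p = 0.0652, limma), and it held without each of the other 5 arrays.

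Eno2, the enolase isozyme typical of neurons and also called gamma-enolase, stood next in size. Its log2 intensities were 10.71, 10.36 and 10.46 in Hsf4-null lenses, against 9.72, 9.61 and 9.77 in wild-type lenses. All 3 null arrays were higher than the highest wild-type array. The log2 fold change was 0.81 (SE 0.12, 95% confidence interval 0.53 to 1.08, adjusted p = 0.0128, limma), a 1.75-fold higher intensity, and the gene has 1 probe set. Eno3, the muscle enolase, had log2 intensities of 10.71, 10.75 and 10.61 in Hsf4-null lenses and 10.42, 10.78 and 10.67 in wild-type lenses, which overlap. The Eno2 call was lost without Hsf4-null replicate 3 (adjusted p = 0.0518, limma) and without wild-type replicate 2 (adjusted p = 0.0634, limma).

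Aldoa encodes the aldolase of muscle and of most other tissues, which splits fructose 1,6-bisphosphate. Its log2 intensities were 11.99, 12.00 and 12.11 in Hsf4-null lenses, against 11.46, 11.56 and 11.42 in wild-type lenses. The spread within each group was small, with an SD of 0.07 in both (n = 3), and the groups did not overlap. The log2 fold change was 0.55 (SE 0.10, 95% confidence interval 0.33 to 0.77, adjusted p = 0.0258, limma), a 1.47-fold higher intensity. All 4 Aldoa probe sets were called, with log2 fold changes of 0.50 to 0.56, and all 4 are of a type whose probes can match related transcripts. Aldoc, the aldolase of brain, differed in sign, with log2 intensities of 11.17, 11.20 and 10.99 in Hsf4-null lenses and 11.20, 11.20 and 11.47 in wild-type lenses (log2 fold change -0.17, adjusted p = 0.551, limma). Its dimmer probe set gave -0.65 with the groups apart (adjusted p = 0.236, limma). The Aldoa call was lost without any single array, at adjusted p-values of 0.0682 to 0.10 (limma).

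**Figure D2:**
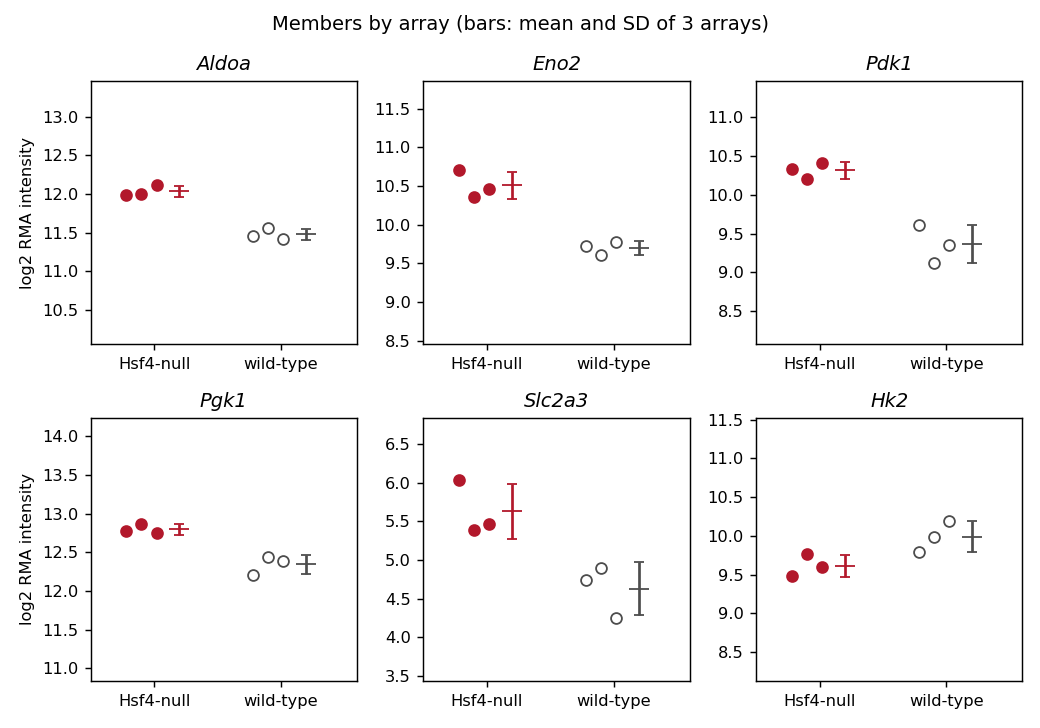
Log2 RMA intensity (vertical axes, all spanning the same range) of Aldoa, Eno2, Pdk1, Pgk1, Slc2a3 and Hk2 on each array, Hsf4-null filled red and wild-type open grey, with the mean and SD of 3 arrays beside the points. The groups are apart for all 6 genes, upward for the first 5 and downward for Hk2, and only Aldoa, Eno2 and Pdk1 passed the test.

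Among the carriers, 0 of 4 passed limma, and 2 were higher at an unadjusted p under 0.05. Slc2a1 (GLUT1), the glucose carrier of lens epithelium and of red cells, had log2 intensities of 13.15, 13.30 and 13.28 in Hsf4-null lenses, against 13.27, 13.30 and 13.28 in wild-type lenses, with a confidence interval of -0.26 to 0.18 for the log2 fold change. These values are near the top of the scale, where a difference can be compressed, and its 2 other probe sets, also bright at 12.64 and 12.68 in Hsf4-null and 12.76 and 12.69 in wild-type lenses, gave log2 fold changes of -0.12 and -0.01. Slc2a3 (GLUT3), a high-affinity glucose carrier known from neurons, had log2 intensities of 6.03, 5.38 and 5.47 in Hsf4-null lenses, against 4.75, 4.89 and 4.25 in wild-type lenses. The groups were apart, but the wild-type values lay below the median of all probe sets. The log2 fold change of 1.0 (SE 0.22, adjusted p = 0.0653, limma) was the largest of all members and did not pass. Of its 3 dimmer probe sets 1 had the groups apart at a log2 fold change of 0.59, and the others gave -0.07 and 0.13.

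Slc16a1 (MCT1), a carrier of lactate and pyruvate, had log2 intensities of 11.25, 11.21 and 11.35 in Hsf4-null lenses, against 11.08, 10.97 and 10.87 in wild-type lenses. All null values were above all wild-type values, and the log2 fold change of 0.29 (SE 0.10, adjusted p = 0.23, limma) did not pass. Slc16a3 (MCT4), the lactate exporter of glycolytic muscle, overlapped between the groups with a mean of 5.41 ± 0.09 in Hsf4-null and 5.56 ± 0.05 in wild-type lenses (SD, n = 3 each).

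Of the 9 tested members of the upper part of glycolysis, from glucose to the triose phosphates, Aldoa rose and 8 did not pass. Hk2, the insulin-responsive hexokinase of muscle, had log2 intensities of 9.47, 9.77 and 9.59 in Hsf4-null lenses, against 9.79, 9.99 and 10.19 in wild-type lenses. The groups lay close together, with 9.77 as the highest null and 9.79 as the lowest wild-type value, and the log2 fold change of -0.38 (SE 0.13, adjusted p = 0.233, limma) did not pass. Hk1, the hexokinase of most tissues, overlapped at a dim level. Pfkl, the liver-type subunit of phosphofructokinase, which commits hexose to glycolysis, had log2 intensities of 8.50, 8.47 and 8.35 in Hsf4-null lenses, against 8.13, 8.24 and 8.01 in wild-type lenses, a log2 fold change of 0.32 that did not pass (SE 0.10, adjusted p = 0.204, limma). The muscle and platelet subunits Pfkm and Pfkp overlapped between the groups, at log2 fold changes of 0.01 and 0.26. Pfkfb3, whose product makes the activator fructose 2,6-bisphosphate, overlapped at -0.17, and Tpi1, triose phosphate isomerase, at 0.16.

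In the lower part, from glyceraldehyde 3-phosphate to pyruvate, Eno2 rose and 4 of the 5 tested members did not pass. Pgk1, the X-linked phosphoglycerate kinase that makes the first ATP of the pathway, had log2 intensities of 12.77, 12.87 and 12.74 in Hsf4-null lenses, against 12.21, 12.43 and 12.39 in wild-type lenses. Its groups did not overlap, and the log2 fold change was 0.45 (SE 0.10, 95% confidence interval 0.21 to 0.69, adjusted p = 0.0753, limma). Of its 2 dimmer probe sets 1 had the groups apart at 0.49 and 1 overlapped at 0.22. Pgam1, phosphoglycerate mutase, overlapped at a log2 fold change of 0.05. Pkm, pyruvate kinase of muscle and most other tissues, stood at 11.15 ± 0.11 in Hsf4-null and 11.13 ± 0.05 in wild-type lenses (SD, n = 3 each), with a confidence interval of -0.22 to 0.25. For Gapdh, the 3 control probe sets of the array gave differences of 0.03, 0.17 and 0.05 on the log2 scale, Hsf4-null minus wild-type, and were not tested.

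**Figure D3:**
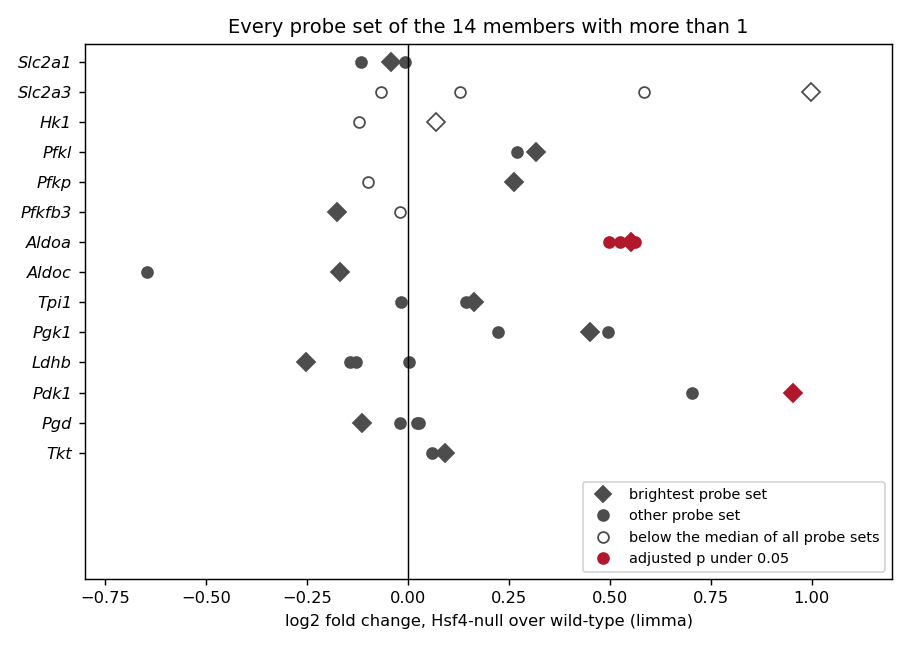
Log2 fold change (horizontal axis, Hsf4-null over wild-type, limma) of every probe set of the 14 members with more than 1. Diamonds are the brightest probe set of a gene, open symbols lie below the median of all probe sets, and red marks an adjusted p under 0.05; the 4 Aldoa probe sets fall together at 0.50 to 0.56 while those of Slc2a3 spread from -0.07 to 1.0.

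Lactate dehydrogenase turns pyruvate to lactate and regenerates NAD. Ldha, its muscle-type subunit, had log2 intensities of 10.48, 10.25 and 10.52 in Hsf4-null lenses and 10.50, 10.73 and 10.30 in wild-type lenses, and the groups overlapped (log2 fold change -0.10, SE 0.14, adjusted p = 0.793, limma). Ldhb, the heart-type subunit, was the least even member, at 8.76, 7.34 and 8.98 in Hsf4-null lenses, against 8.73, 9.09 and 8.01 in wild-type lenses. Hsf4-null replicate 2 was the lowest array and wild-type replicate 3 the next lowest, and the standard error of 0.44 was the highest of all members. Some markers of neurons varied over the same arrays. Snap25, a synaptic protein, had log2 intensities of 9.55, 5.15 and 9.41 in Hsf4-null lenses and 7.35, 9.0 and 5.91 in wild-type lenses, and Tubb3 and Stmn2 were likewise lowest in Hsf4-null replicate 2 and next lowest in wild-type replicate 3. These 3 were singled out after their values were seen: 5 of the 8 measured markers were lowest in Hsf4-null replicate 2, and Elavl4, Nrl, Crx, Rbfox3 and Rcvrn had another order. Of the 10 listed neuron and retina markers 8 were measured, 4 of them below the median of all probe sets, 0 were called by limma or had an unadjusted p under 0.05, and their summed linear intensity ran from 164 to 1427 in Hsf4-null and from 374 to 1083 in wild-type lenses. Their part in the spread of Ldhb was not tested.

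**Figure D4:**
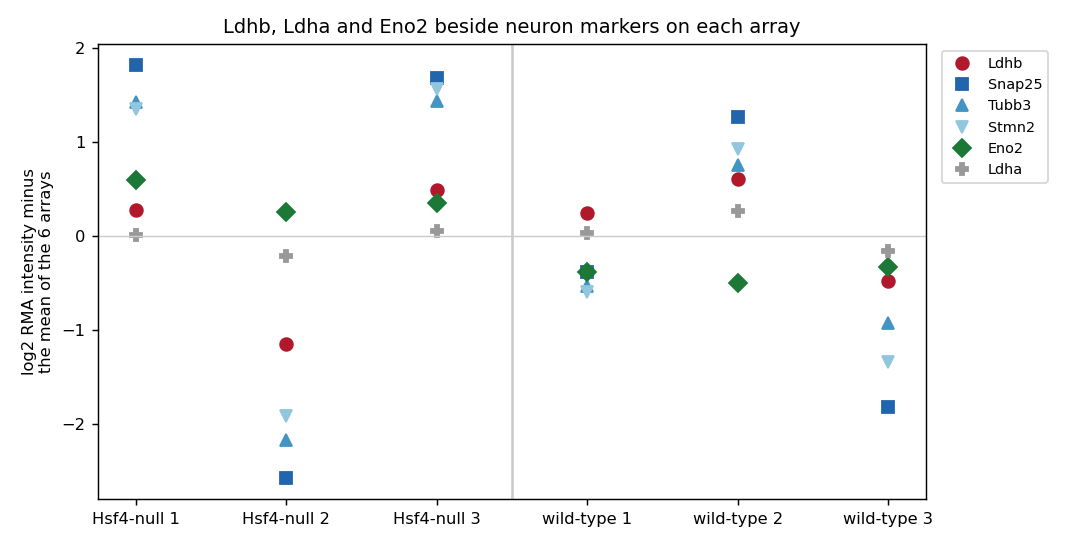
Log2 RMA intensity of Ldhb, Ldha, Eno2 and the neuron markers Snap25, Tubb3 and Stmn2, each minus its own mean over the 6 arrays (vertical axis), on each array with the 3 Hsf4-null arrays left of the 3 wild-type arrays. Ldhb and these 3 markers, chosen from 8 after their values were seen, are lowest in Hsf4-null replicate 2, where Eno2, at 10.36, is at its own lowest Hsf4-null value and above every wild-type array.

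Eno2 was lowest among the Hsf4-null arrays in replicate 2 and highest in replicate 1, as Snap25 was. Among the wild-type arrays it was lowest in replicate 2, at 9.61, where Snap25 was highest, at 9.0. Of the marker lists of other cell types, the mesenchyme list held 2 genes called higher, Col1a1 and Twist1, of 7 measured. Its summed linear intensity was 993 to 1239 in Hsf4-null and 538 to 694 in wild-type lenses, and without Col1a1 the sums overlapped, at 455 to 490.3 in Hsf4-null and 379 to 582 in wild-type lenses. The sum over 7 pigment cell markers overlapped at 967 to 2009 in Hsf4-null and 383 to 1189 in wild-type lenses, with a median log2 fold change of 0.64, 0 called by limma and 2 higher at an unadjusted p under 0.05. The sum over 9 macrophage markers overlapped at 820.3 to 1474 in Hsf4-null and 472 to 1236 in wild-type lenses, with a median log2 fold change of 0.25, 0 called by limma and 1 higher at an unadjusted p under 0.05. The sum over 9 vascular markers was 2405 to 2479 in Hsf4-null and 1660 to 2282 in wild-type lenses, with 0 called by limma and 3 higher at an unadjusted p under 0.05, and that of 4 red cell markers was 106 to 119 in Hsf4-null and 72.0 to 86.5 in wild-type lenses, with 0 called by limma, 2 higher at an unadjusted p under 0.05 and all 4 below the median of all probe sets. The mean log2 of 6 lens epithelium markers was 9.21 to 9.42 in Hsf4-null and 9.45 to 9.53 in wild-type lenses, with 0 called by limma and 2 lower at an unadjusted p under 0.05. Their summed linear intensity overlapped, at 7730 to 8743 in Hsf4-null and 8637 to 9032 in wild-type lenses. The mean log2 of the 9 vascular markers overlapped too, at 7.168 to 7.335 in Hsf4-null and 6.740 to 7.195 in wild-type lenses. Whether these 2 lists were apart thus depended on the measure. At an unadjusted p under 0.05, 7.34% of all genes were higher and 8.38% lower, and limma called 0.775% higher and 2.11% lower. No list was tested as a whole. The part of these cells in the higher values of Aldoa, Eno2 and Pdk1 was not tested.

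The pentose phosphate pathway gave 0 calls by limma, and 0 members had an unadjusted p under 0.05. Its 4 tested members spanned log2 fold changes of -0.11 to 0.09, the narrowest range of any role with more than 1 tested member, and in each the groups overlapped. Tkt, transketolase, had log2 intensities of 12.21, 12.00 and 12.25 in Hsf4-null lenses and 12.16, 12.05 and 11.97 in wild-type lenses, and its 95% confidence interval ran from -0.16 to 0.35. Pgd, 6-phosphogluconate dehydrogenase, which makes NADPH, had 9.22, 9.11 and 9.10 in Hsf4-null lenses and 9.20, 9.27 and 9.29 in wild-type lenses. The null arrays were mostly lower, but the interval of -0.33 to 0.10 includes 0. Its dimmer probe sets overlapped between the groups, at log2 fold changes of 0.02, -0.02 and 0.03. Pgls, the lactonase between the dehydrogenases, and Taldo1, transaldolase, gave log2 fold changes of -0.01 and 0.07. Of the polyol and fructose members Khk, ketohexokinase, which phosphorylates fructose, was the one tested, at 5.01, 4.99 and 5.22 in Hsf4-null lenses and 5.03, 4.79 and 4.74 in wild-type lenses, below the median of all probe sets.

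Whether related isozymes and carriers changed unequally was asked by the difference between their probe sets within each array, for 9 pairs of which both genes were measured. With 3 arrays against 3 an exact permutation test cannot give a p below 0.1. The change of Aldoa against Aldoc was 0.72 on the log2 scale (SE 0.16) and that of Eno2 against Eno3 was 0.74 (SE 0.18). The change of Slc2a1 against Slc2a3 was -1.04 (SE 0.32), between a probe set near the top of the scale and one whose wild-type values lay below the median of all probe sets, and with the mean of all probe sets of each gene it was -0.47. Hk1 against Hk2 shifted by 0.45 (SE 0.17) and Slc16a1 against Slc16a3 by 0.44 (SE 0.08). Hk1 lay below the median of all probe sets of 5.29, at a mean log2 of 5.26, and Slc16a3 just above it, at 5.49. Such levels may be background. In these 5 pairs the within-array differences of the groups did not overlap, which gave the smallest possible two-sided exact p of 0.1 and 0.18 after adjustment over the 9 pairs. Each of the 5 holds a member whose own groups were apart, so the pair values largely repeat those of the single genes. Among all genes the groups were apart in 10.1% upward and 11.5% downward, and no share over other gene pairs was computed. The 3 phosphofructokinase pairs and Ldha against Ldhb overlapped, with exact p-values of 0.3 to 0.9.

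Of 102 other genes of these pathways and of the hypoxia response, 78 were tested, 1 rose and 3 fell. Over all tested genes 0.775% were called higher and 2.11% lower. By limma 0 of the 17 tested genes of glycolysis and gluconeogenesis outside the members passed, as did 0 of 9 genes of pyruvate handling, 0 of 10 of the pentose phosphate and nucleotide sugar list and 0 of 8 of the polyol and fructose list. At an unadjusted p under 0.05 these lists held 2, 1, 0 and 1 genes, of which 1 glycolytic gene and the pyruvate gene were higher and 1 glycolytic gene and the polyol gene were lower. At that threshold 7.34% of all genes were higher and 8.38% lower. The methods' t-test called 10 of the 78 genes at an unadjusted p under 0.05, against 12.9% of all probe sets, and 0 after Benjamini-Hochberg adjustment, against 0.376%.

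The called carrier gene was Emb, which encodes embigin, a membrane glycoprotein that escorts monocarboxylate carriers to the cell surface. Emb had log2 intensities of 7.29, 6.88 and 6.56 in Hsf4-null lenses, against 8.75, 8.88 and 7.88 in wild-type lenses. Every null array lay below every wild-type array, and the log2 fold change was -1.60 (SE 0.28, adjusted p = 0.0292, limma), with its second probe set also called at -1.64. It was the 1 called gene among 14 tested carriers outside the members. Bsg, basigin, the better known partner of Slc16a1, was looked up after its values were seen and overlapped at 10.04, 9.88 and 9.89 in Hsf4-null lenses and 9.95, 10.07 and 9.77 in wild-type lenses. The Emb call was lost without Hsf4-null replicate 2 or 3 or wild-type replicate 1 or 2, at adjusted p-values of up to 0.12 (limma).

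Among 20 tested genes of the hypoxia response, Bnip3 rose, Ndrg1 and P4ha2 fell and 17 did not pass. The shares over all tested genes were 0.775% higher and 2.11% lower. Bnip3, a mitochondrial protein of mitophagy and cell death, had log2 intensities of 10.98, 11.06 and 10.83 in Hsf4-null lenses, against 9.79, 9.78 and 10.13 in wild-type lenses. The groups were apart by more than their own ranges, and the log2 fold change of 1.05 (SE 0.13, adjusted p = 0.00502, limma) kept its call without any single array. Ndrg1, known as a stress- and hypoxia-induced gene, went the other way, at 11.84, 11.96 and 11.66 in Hsf4-null lenses, against 12.52, 12.54 and 12.73 in wild-type lenses. Its log2 fold change was -0.78 (SE 0.12, adjusted p = 0.0133, limma), and all 5 of its probe sets were called lower, from -1.78 to -0.78. P4ha2, a subunit of the prolyl hydroxylase of collagen, had log2 intensities of 6.50, 6.14 and 6.16 in Hsf4-null lenses, against 7.14, 6.87 and 7.06 in wild-type lenses, a log2 fold change of -0.76 (SE 0.13, adjusted p = 0.0286, limma). The call was lost for Ndrg1 without Hsf4-null replicate 3 or wild-type replicate 2 or 3 (adjusted p-values of up to 0.0540, limma), and P4ha2 kept it in 1 of the 6 sets that left out an array.

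Pdk2, another kinase of pyruvate dehydrogenase, was named after its values were seen, as a relative of Pdk1. It had log2 intensities of 6.46, 6.32 and 6.26 in Hsf4-null lenses, against 5.48, 6.01 and 5.41 in wild-type lenses. The groups were apart, and the log2 fold change of 0.71 (SE 0.17, adjusted p = 0.0815, limma) did not pass. Pdk3 and Pdk4, further kinases of the same list, overlapped at log2 fold changes of -0.20 and 0.21 (adjusted p = 0.570 and 0.796, limma). Outside the kinases, Gpd1 of the glycolysis list and Ak4 of the hypoxia list were also apart upward without passing. Their log2 fold changes were 0.75 and 0.58 (adjusted p = 0.132 and 0.138, limma).

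**Figure D5:**
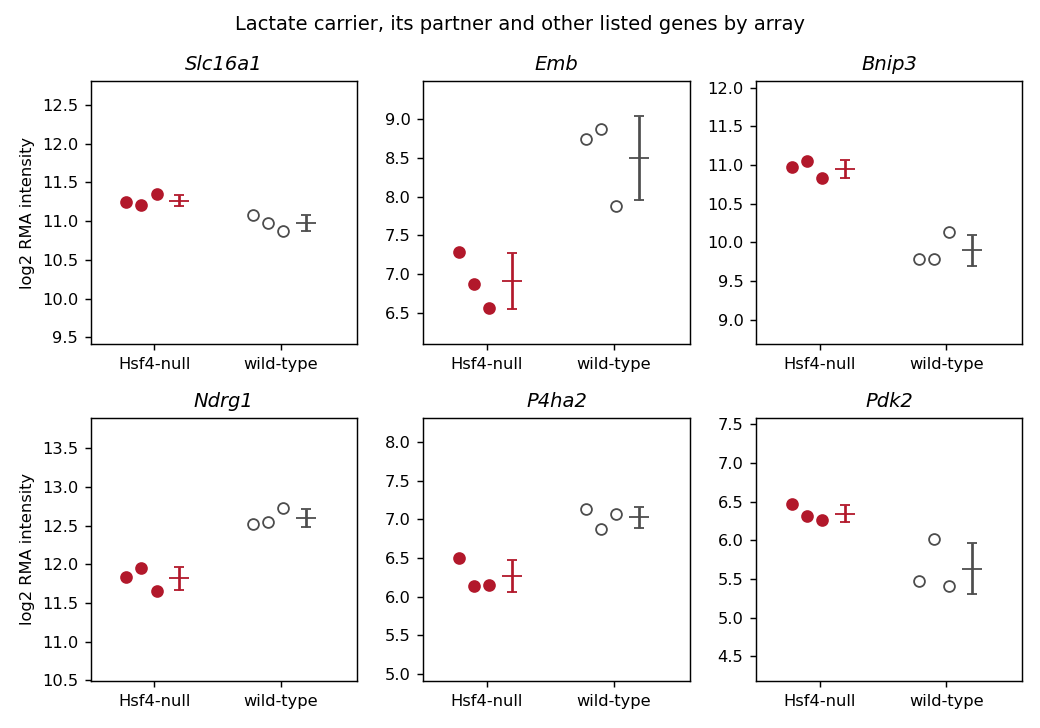
Log2 RMA intensity (vertical axes, all spanning the same range) of the lactate carrier Slc16a1, of Emb and of Bnip3, Ndrg1, P4ha2 and Pdk2 on each array, Hsf4-null filled red and wild-type open grey, with the mean and SD of 3 arrays beside the points. Emb, Ndrg1 and P4ha2 are lower and Bnip3 is higher in every Hsf4-null array; Slc16a1 and Pdk2 are apart between the groups but did not pass the test.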

How the data were processed

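RNA of 6 newborn mouse lens samples was hybridized to Affymetrix arrays. RMA was applied by the authors: it corrects background, brings the arrays to one distribution, which removes any change shared by all transcripts, and summarizes the probes of a set. The deposited values are intensities on a linear scale, and the RMA version is not stated.

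Each of 22626 probe sets was tested on log2 intensity in a 2-group model without a block (limma 3.58.1, R 4.3.3, lmFit followed by eBayes), the 64 array controls among the 22690 probe sets being excluded and dim probe sets kept. A Benjamini-Hochberg adjusted p under 0.05 made a call. The platform annotation gave 1 symbol to 20380 probe sets, several to 691 and none used here to 1555. Symbols were updated, and promoters taken, from RefSeq tables of GRCm38.p6.

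Groups came from the sample labels. All 32 members were named, with the called genes of the other lists and Hsf4, and full statistics were given for members that were called, or whose groups did not overlap at a log2 change of at least 0.5, and for some others. The members and lists were chosen with earlier results of these data known. Alternatives covered the test (the methods' t-test, replicate block, array weights, trended and robust variance), the scaling (quantile, median), the probe sets (dim ones removed, 1 or the mean of all per gene) and each array left out. SAM, the other criterion of the methods, was not run. The procedure was tested on simulated data. The number of arrays, 3 a group, limits the precision.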

Additional observations from a re-analysis of the deposited data

How the results depend on the processing

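Every called gene kept its direction under all alternatives run, and no gene changed sign against the main fit where either fit passed it. Of the values of single genes and pairs, 514 stayed the same. For a gene this means its side of the threshold, for a pair a shift below its larger within-group SD. Another 10 gene values passed the threshold newly, 30 lost it, and 2 pair differences moved. The 602 probe sets, 3 members and 4 other pathway genes called became 2912, 7 and 10 with the methods' t-test unadjusted and 85, 0 and 0 after Benjamini-Hochberg adjustment of it. Trended and robust variance and renewed quantile normalization each called 5 members, adding Pgk1 (adjusted p = 0.00419 and 0.0436, limma) and Slc2a3 (adjusted p = 0.0341 and 0.0441, limma), median centring added Slc2a3, the filter on dim probe sets added Pgk1, and testing 1 probe set per gene called 366 probe sets. Leaving out each array in turn gave 321 to 562 probe sets, 0 to 2 members, 1 to 4 other pathway genes and 5 to 7 isozyme pairs with the groups apart, with the lowest counts without Hsf4-null replicate 3 for the first 3 of these. The same replicate numbers did not pair the arrays (correlations of their deviations from the group means 0.25, -0.21 and -0.08), and not every array correlated best with its own number. The highest correlation was 0.41, between Hsf4-null replicate 2 and wild-type replicate 3, the arrays lowest for Ldhb. With the number as a block, 382 probe sets, 2 members and 4 other pathway genes were called, and Aldoa (adjusted p = 0.0892, limma) and Ndrg1 (adjusted p = 0.0611, limma) lost the call. With the mean of all probe sets of a gene, the shift of Aldoa against Aldoc was 0.94 and that of Slc2a1 against Slc2a3 was -0.47. Slc2a3 could not be tested without dim probe sets, since its own are dim. No cause of these changes was tested, and low intensity limits what can be said of Slc2a3, Slc16a3, Hk1 and Khk.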
